A study of Mus musculus with 10 samples.

Results

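The genes of DNA replication and mitosis described here are 42 of the 25239 gene symbols in the authors' count table. They were given by name: 21 genes that act when DNA is copied (the S-phase arm) and 21 that act when chromosomes are separated (the mitotic arm). All 42 were found and all passed the low-count filter. The cohesin acetyltransferase gene Esco2 was put in the S-phase arm because its product acts while DNA is copied. Their RNA was compared between 2 cell populations that flow cytometry isolated from calvarial suture, the fibrous joint between flat skull bones, of 7-day-old mouse pups (postnatal day 7). Groups were named DDR2-plus and PSC in the labels, which do not expand PSC, and had 5 libraries each. Both were labelled wild type and as calvarial stem cells, while the protocol names Ctsk-Cre mice for both, with 5 animals. Ctsk-Cre expresses the recombinase from the gene of cathepsin K, a collagen-degrading protease. Which animals gave which library is not stated, and the p-values below reflect library-to-library spread alone, which may be technical.

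As background, a dividing cell first loads the MCM helicase onto origins of replication, a step called licensing that needs CDC6 and CDT1. Cyclin E with CDK2 and the E2F factors then start S phase, in which polymerases held by the PCNA clamp copy the DNA. Genes of this arm are transcribed mainly around the start of S phase and often carry E2F sites. Mitotic genes peak later, and many carry a short element called CHR, bound by the MuvB complexes, near CCAAT boxes bound by NF-Y. In young skeletal tissue such transcripts come from any cell type that divides. In bulk RNA, a larger share of dividing cells and more RNA per dividing cell cannot be told apart.

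The members of both arms tended to have more RNA in DDR2-plus. Among the 42 genes, 31 passed the test as higher and 0 as lower, where 20.1% of the 15416 genes tested rose and 19.0% fell. A gene rose or fell where its Benjamini-Hochberg adjusted p over all tested genes was under 0.05 in edgeR's quasi-likelihood test. Levels are given as CPM, counts per 1000000 after scaling by TMM factors for library composition. In the S-phase arm 13 of 21 rose, with a median log2 fold change of 0.79, and in the mitotic arm 18 of 21 rose, with a median of 1.29. By DESeq2 15 S-phase and 17 mitotic genes rose, and with library size alone as scaling 18 and 19. Over all tested genes the median was 0.04. Changes of at least 2-fold were found for 14 mitotic genes and for 2 S-phase genes, Pole and Esco2, against 9.94% of all tested genes. The lowest fold change of all members was 1.14-fold for Cenpa, and the highest was 6.67-fold for Troap. All 42 estimates were above 0. The difference between the arms was not tested, because both were chosen with results of these data known.

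**Figure D1:**
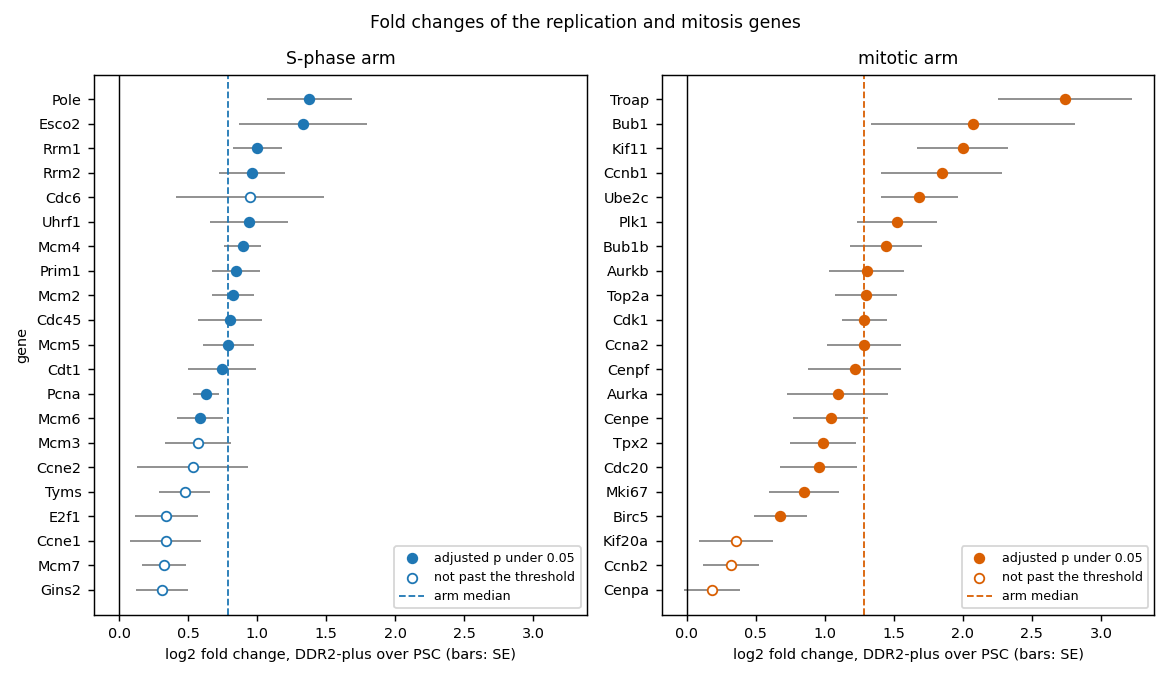
Log2 fold change of each gene (x axis, DDR2-plus over PSC, with bars for the SE) in the S-phase arm (left) and the mitotic arm (right). Filled points passed the edgeR test, and the dashed lines are the arm medians of 0.79 and 1.29.

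The promoters of the arms were searched for the short elements named above, which the choice of members did not use. Promoter sequences from RefSeq (build GRCm38.p6, which is mm10) matched 33 of the 42 genes, 16 in the S-phase arm and 17 in the mitotic arm. Each window ran from 250 bases before to 50 bases after the start and was searched on both strands. Mcm4, Ccne2, Gins2, Pole, Esco2, Ccna2, Aurkb, Tpx2 and Kif20a had no entry. E2F-like letters (TTCGCGC or TTGGCGC) stood in 6 of 16 S-phase promoters (37.5%), in 3 of 17 mitotic ones (17.6%), and in 4.47% of the promoters of all 27025 genes in the table. CHR letters (TTTGAA or TTCGAA) stood in 13 of 17 mitotic promoters (76.5%), in 3 of 16 S-phase ones (18.8%), and in 21.7% of all. The CCAAT box was found in 16 of 17 mitotic (94.1%), 11 of 16 S-phase (68.8%) and 41.1% of all promoters. A gene with several windows was counted if any of them held the element. CHR and CCAAT letters were both held by 13 of 17, 3 of 16 and 9.65%, in the same window or in different windows of a gene. Among promoters of tested genes alone, the shares were 7.89% for E2F-like letters, 16.4% for CHR, 42.7% for CCAAT and 8.09% for CHR with CCAAT. These shares are descriptions, and a match is not a bound site.

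The 250 bases before the start are shown for the 3 genes per arm with the smallest p among those that hold the element of their arm. Letters of the searched elements are in capitals, and all other bases are in lower case, 5′ to 3′ on the strand of the gene. The S-phase examples are Mcm5 (chr8:75109259-75109508, plus strand), Mcm6 (chr1:128359706-128359955, minus strand) and Uhrf1 (chr17:56304063-56304312, plus strand; this gene has another window without E2F-like letters).
Mcm5: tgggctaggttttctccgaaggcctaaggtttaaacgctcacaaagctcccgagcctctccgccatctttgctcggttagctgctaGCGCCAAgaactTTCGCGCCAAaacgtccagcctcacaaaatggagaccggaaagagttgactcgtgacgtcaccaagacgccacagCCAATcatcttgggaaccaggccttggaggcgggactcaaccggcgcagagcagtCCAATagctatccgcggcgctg
Mcm6: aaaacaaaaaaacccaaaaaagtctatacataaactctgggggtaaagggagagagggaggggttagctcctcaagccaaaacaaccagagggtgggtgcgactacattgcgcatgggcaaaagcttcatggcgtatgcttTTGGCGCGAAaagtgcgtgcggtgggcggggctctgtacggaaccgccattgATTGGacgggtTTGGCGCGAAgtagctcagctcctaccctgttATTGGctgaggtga
Uhrf1: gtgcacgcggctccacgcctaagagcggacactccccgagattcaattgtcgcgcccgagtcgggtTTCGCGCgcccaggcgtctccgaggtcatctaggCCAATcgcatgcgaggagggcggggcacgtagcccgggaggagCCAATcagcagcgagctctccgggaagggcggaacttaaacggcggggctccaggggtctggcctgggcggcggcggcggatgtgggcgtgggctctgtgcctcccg
In Mcm5 and Mcm6 the E2F-like letters of both strands overlap, so that capitals run on as a longer block. The mitotic examples are Cdk1 (chr10:69352913-69353162, minus strand), Kif11 (chr19:37376132-37376381, plus strand) and Ube2c (chr2:164769679-164769928, plus strand).
Cdk1: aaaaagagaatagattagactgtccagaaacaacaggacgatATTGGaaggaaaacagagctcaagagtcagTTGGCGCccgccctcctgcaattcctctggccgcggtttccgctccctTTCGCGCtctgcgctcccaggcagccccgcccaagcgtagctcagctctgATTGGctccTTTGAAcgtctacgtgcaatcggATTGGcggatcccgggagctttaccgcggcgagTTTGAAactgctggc
Kif11: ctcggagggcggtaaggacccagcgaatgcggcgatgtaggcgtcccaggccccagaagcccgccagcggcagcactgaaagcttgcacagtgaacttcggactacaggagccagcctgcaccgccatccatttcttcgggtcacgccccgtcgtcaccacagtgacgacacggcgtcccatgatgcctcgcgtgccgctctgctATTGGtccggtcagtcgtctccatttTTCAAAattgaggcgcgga
Ube2c: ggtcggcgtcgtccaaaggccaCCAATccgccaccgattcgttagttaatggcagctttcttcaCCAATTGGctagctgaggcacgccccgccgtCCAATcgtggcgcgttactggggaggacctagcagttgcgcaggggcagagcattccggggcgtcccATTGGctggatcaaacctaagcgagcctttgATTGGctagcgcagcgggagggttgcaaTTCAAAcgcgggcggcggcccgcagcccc
In Cdk1 a CHR match (TTTGAA) begins 15 bases before the start, in Kif11 the reverse form (TTCAAA) begins 19 bases before it, and in Ube2c 29 bases before it. All 3 carry CCAAT letters, or ATTGG on the other strand, further from the start. Cdk1 holds E2F-like letters as well, as do Mki67 and Ccnb1 in the mitotic arm. Ccnb2 and Cenpa hold CHR and CCAAT letters and did not pass the test of expression, while Troap, the gene with the largest fold, holds CCAAT letters and no CHR letters in this window. Tyms, Cdc6, E2f1 and Ccne1, all without a call, and Birc5, which rose, hold none of the 3 elements in theirs. Mcm3 and Mcm7 hold E2F-like and CCAAT letters and did not pass.

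The 6 subunits of the MCM helicase, the ring that unwinds DNA at forks, all had higher means in DDR2-plus, and 4 passed the test. Mcm4 was measured at 51.4, 44.3, 44.3, 45 and 39.5 CPM in DDR2-plus 1 to 5 and 22.6, 33.3, 21.7, 21.6 and 21.5 CPM in PSC 1 to 5. The groups did not overlap, and the DDR2-plus libraries lay close together. The difference was 1.86-fold (log2 fold change 0.90 with SE 0.132, 5 libraries a group; adjusted p by edgeR = 0.000169). For Mcm2 the values were 53.7, 37, 33.6, 41.8 and 34.5 CPM in DDR2-plus 1 to 5 and 17.96, 26.03, 26.1, 19.3 and 23.8 CPM in PSC 1 to 5. DDR2-plus 1 was the highest library, and the groups were again apart, with a difference of 1.77-fold (edgeR adjusted p = 0.000904). Mcm5 rose 1.73-fold (31.1 ± 6.79 against 18.01 ± 4.19 CPM; edgeR adjusted p = 0.00435) and Mcm6 rose 1.502-fold (60.7 ± 15.97 against 40.4 ± 7.53 CPM; edgeR adjusted p = 0.0143). In Mcm6 PSC 2, at 53.0 CPM, stood above the 2 lowest DDR2-plus libraries. Mcm3 (29.5 ± 7.50 against 19.9 ± 6.67 CPM; edgeR adjusted p = 0.0755) and Mcm7 (29.1 ± 5.21 against 23.2 ± 4.52 CPM; edgeR adjusted p = 0.121) did not pass. Subunits of 1 complex thus had fold changes from 1.25-fold to 1.86-fold, and the differences between subunits were not tested.

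At the fork, Pole, the catalytic subunit of the leading-strand polymerase (chromosome 5, 110286306 to 110337474, plus strand, in mm10), had the largest fold of the S-phase arm. Its values were 8.37, 6.10, 7.79, 8.51 and 5.41 CPM in DDR2-plus 1 to 5 and 2.24, 3.06, 4.86, 2.04 and 1.72 CPM in PSC 1 to 5. Even the highest PSC library lay below the lowest DDR2-plus one, and the difference was 2.60-fold (log2 fold change 1.38 with SE 0.308, 5 libraries a group; adjusted p by edgeR = 0.00337). Pcna, the sliding clamp that holds polymerases on DNA, had tighter values, and has 2 named pseudogenes that could take up reads. It was found at 41.6, 34.4, 34.3, 36.7 and 32 CPM in DDR2-plus 1 to 5 and 22.8, 24.2, 23.1, 24.4 and 21.1 CPM in PSC 1 to 5. The smallest gap between the groups was from 24.4 to 32 CPM, for a rise of 1.55-fold (edgeR adjusted p = 0.000174). Prim1, the primase subunit that makes the RNA primers, rose 1.80-fold (12.2 ± 2.22 against 6.79 ± 0.838 CPM; edgeR adjusted p = 0.00171), also without overlap.

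Of the 3 genes of nucleotide supply, 2 rose. Ribonucleotide reductase makes the deoxynucleotides for replication, and its large subunit gene Rrm1 (chromosome 7, 102441695 to 102469771, plus strand) stood at 86.1, 63.1, 49.1, 74.4 and 51 CPM in DDR2-plus 1 to 5 and 26.2, 40.6, 30.1, 25.99 and 39 CPM in PSC 1 to 5. All DDR2-plus libraries exceeded all PSC libraries, with a difference just under 2.0-fold (log2 fold change 1.00 with SE 0.179, 5 libraries a group; adjusted p by edgeR = 0.00073). The small subunit gene Rrm2, which limits the enzyme outside S phase, rose 1.95-fold (35.6 ± 11.5 against 18.3 ± 5.27 CPM; edgeR adjusted p = 0.00617), and its groups did not overlap either. Tyms, the thymidylate synthase gene, missed the threshold at 12.4 ± 2.26 against 8.92 ± 1.77 CPM (edgeR adjusted p = 0.0569), with PSC 1 and 2 above DDR2-plus 5, and it also has a named pseudogene.

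The genes that start S phase gave no calls. Ccne1 and Ccne2 encode the E cyclins, and E2f1 encodes a transcription factor that activates the genes of this arm. None of these 3 passed the test. Ccne1 was at 14.4, 8.68, 12.8, 10.4 and 7.60 CPM in DDR2-plus 1 to 5 and 7.08, 5.56, 7.02, 9.50 and 13.5 CPM in PSC 1 to 5. PSC 5 came second among all 10 libraries behind DDR2-plus 1, and the groups overlapped widely (1.26-fold higher mean in DDR2-plus, edgeR adjusted p = 0.329). E2f1 averaged 19.8 ± 3.86 against 15.6 ± 4.77 CPM (edgeR adjusted p = 0.263), and Ccne2 3.72 ± 1.24 against 2.57 ± 1.37 CPM (edgeR adjusted p = 0.325). A missed threshold does not show equal levels, since the log2 fold change of Ccne2 had an SE of 0.402.

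Of the 4 genes of origin licensing and firing, 2 rose. Cdc45, part of the active helicase, rose 1.75-fold (7.27 ± 1.71 against 4.16 ± 0.769 CPM; edgeR adjusted p = 0.0142; 0.104 without the 3 libraries with granulocyte genes described below), and Cdt1, the licensing factor that loads the helicase, rose 1.68-fold (13.9 ± 4.20 against 8.27 ± 2.82 CPM; edgeR adjusted p = 0.0304). In Cdt1, PSC 3 at 13.3 CPM was above 2 DDR2-plus libraries. Without that library the adjusted p stayed under the threshold, whereas it did not when PSC 1, 2, 4 or 5 or DDR2-plus 1, 3 or 4 was left out, or the 3 libraries with granulocyte genes (up to 0.204 over all settings). Cdc6, which loads the helicase with Cdt1, had 21 to 390 counts per library and averaged 4.27 ± 1.77 against 2.22 ± 1.59 CPM (edgeR adjusted p = 0.184). Gins2, another part of the active helicase, averaged 9.04 ± 1.502 against 7.28 ± 1.37 CPM (edgeR adjusted p = 0.216). It shares 67.3% of its exonic bases with Gse1. The libraries do not mark strand, so reads from the shared bases cannot be told apart from those of Gse1.

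Genes that copy chromatin marks and cohesion rose with a wide spread. Uhrf1, which guides the maintenance of DNA methylation at forks, stood at 29.3, 12.5, 14.6, 18.7 and 8.25 CPM in DDR2-plus 1 to 5 and 7.16, 11.1, 9.19, 8.84 and 7.22 CPM in PSC 1 to 5. Its DDR2-plus values ran from 8.25 to 29.3 CPM and overlapped with PSC (1.92-fold higher, edgeR adjusted p = 0.0194). Esco2, which locks sister chromatids together during replication, was at 7.64, 2.11, 5.22, 8.52 and 2.04 CPM in DDR2-plus 1 to 5 and 3.28, 2.05, 1.85, 1.88 and 1.07 CPM in PSC 1 to 5. It was high in DDR2-plus 1, 3 and 4, while DDR2-plus 2 and 5 lay within the PSC range (2.52-fold higher, edgeR adjusted p = 0.0366). Uhrf1 lost its call by limma-voom, without DDR2-plus 1 and without the 3 libraries with granulocyte genes (adjusted p up to 0.0689). Esco2 lost it in 9 of 19 other settings, namely by limma-voom, without DDR2-plus 1, 3 or 4, without PSC 2, 3, 4 or 5 and without the 3 libraries with granulocyte genes (adjusted p up to 0.118).

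Of the 7 cyclin and kinase genes of the mitotic arm 6 rose. Cdk1, the kinase that drives entry into mitosis, was at 42.5, 31, 36.1, 44 and 26.5 CPM in DDR2-plus 1 to 5 and 18.1, 12.7, 13.4, 12.7 and 16.9 CPM in PSC 1 to 5. The PSC libraries formed a narrow band below the DDR2-plus ones, with a difference of 2.44-fold (log2 fold change 1.29 with SE 0.161, 5 libraries a group; adjusted p by edgeR = 4.72e-05). Ccnb1 (chromosome 13, 100778650 to 100786570, minus strand) encodes cyclin B1, a partner of CDK1. Its levels were 22.6, 8.14, 10.2, 16.2 and 8.23 CPM in DDR2-plus 1 to 5 and 2.51, 6.10, 5.02, 3.53 and 1.02 CPM in PSC 1 to 5. DDR2-plus 1 and 4 stood highest and PSC 5 lowest, without overlap of the groups, and the difference was 3.598-fold (log2 fold change 1.85 with SE 0.438, 5 libraries a group; adjusted p by edgeR = 0.00485). Its relative Ccnb2, the gene of cyclin B2, was instead at 22.8, 17.8, 16.6, 22.3 and 14.4 CPM in DDR2-plus 1 to 5 and 16.8, 21.4, 12.7, 14.7 and 9.81 CPM in PSC 1 to 5. Here PSC 2 exceeded 3 DDR2-plus libraries and no call was made (1.25-fold higher mean, edgeR adjusted p = 0.241). Both cyclin B genes have a pseudogene in the annotation that could take up reads. Ccna2, the gene of cyclin A2, which serves S phase and mitosis, rose 2.44-fold (33.4 ± 11.8 against 13.7 ± 4.87 CPM; edgeR adjusted p = 0.00221).

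The genes of the polo-like and Aurora kinases also rose. Plk1, the polo-like kinase of spindle poles and kinetochores, rose 2.88-fold (10.4 ± 3.42 against 3.61 ± 1.02 CPM; edgeR adjusted p = 0.00113). Aurkb, the kinase of the chromosomal passenger complex, rose 2.47-fold (14 ± 5.24 against 5.68 ± 1.53 CPM; edgeR adjusted p = 0.00231), and neither gene overlapped between the groups. Aurka, the centrosomal Aurora kinase, rose 2.13-fold (9.63 ± 4.403 against 4.51 ± 2.20 CPM; edgeR adjusted p = 0.0317), but PSC 2 at 7.47 CPM was above DDR2-plus 2 and 5. It lost its call without DDR2-plus 1 or 4 and without PSC 3, 4 or 5, with an adjusted p of up to 0.101.

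The proliferation antigen Mki67, which coats mitotic chromosomes, had a smaller fold than the median of its arm. It was measured at 52.1, 31.9, 31.4, 50.7 and 22.3 CPM in DDR2-plus 1 to 5 and 16.3, 27.2, 28.8, 15.3 and 16.9 CPM in PSC 1 to 5. DDR2-plus 1 and 4 stood apart at the top, while DDR2-plus 5 was below PSC 2 and 3. The difference was 1.80-fold (log2 fold change 0.85 with SE 0.254, 5 libraries a group; adjusted p by edgeR = 0.0181). The call was lost without DDR2-plus 1, without DDR2-plus 4 and without the 3 libraries with granulocyte genes (highest adjusted p over all settings, 0.0655). Top2a, the topoisomerase that untangles chromosomes, was at 71.8, 35.6, 40.3, 60.9 and 34.3 CPM in DDR2-plus 1 to 5 and 17.4, 26.6, 22.7, 17 and 15.1 CPM in PSC 1 to 5. Its groups did not overlap, and DDR2-plus 1 and 4 were again the highest, for a rise of 2.46-fold (log2 fold change 1.30 with SE 0.227, 5 libraries a group; adjusted p by edgeR = 0.000617).

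**Figure D2:**
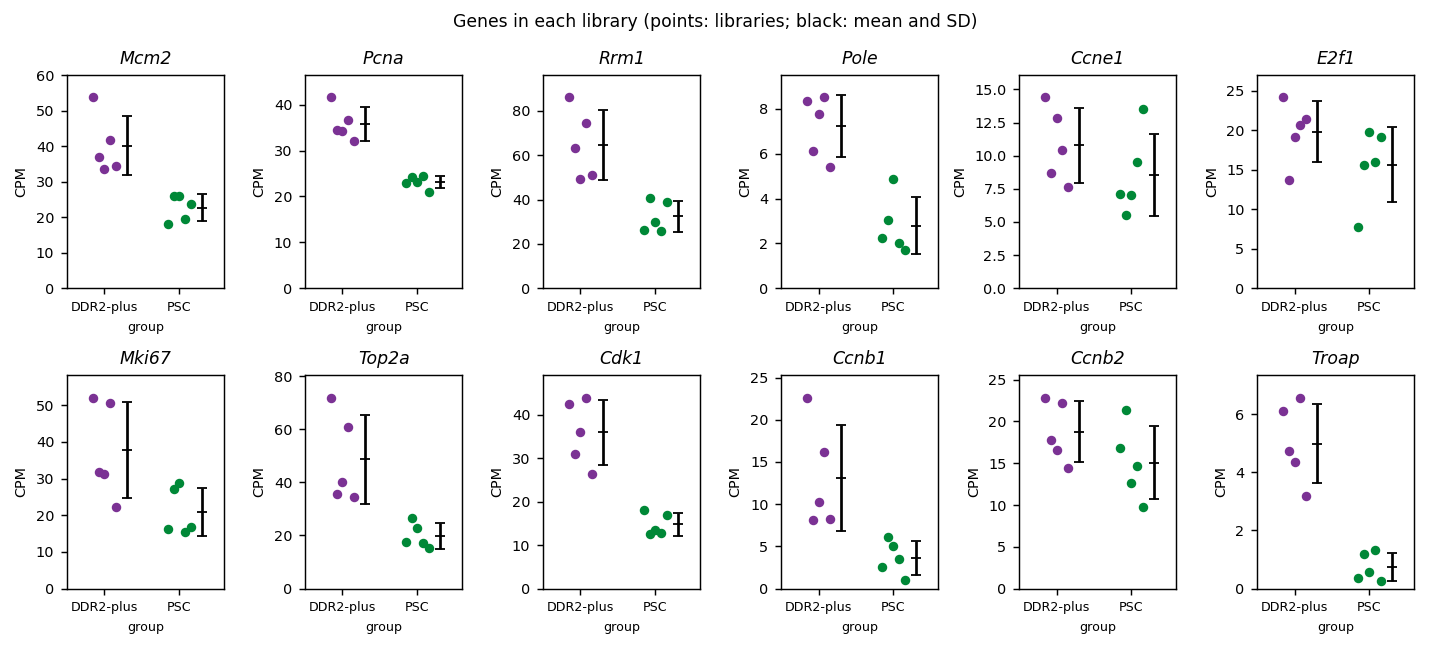
CPM (y axis, from 0) of 6 S-phase genes (top row) and 6 mitotic genes (bottom row) in each library, by group, with the mean and SD in black. Pole, Cdk1 and Troap show groups that do not overlap, whereas Ccne1, E2f1 and Ccnb2 show groups that do.

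Genes of the spindle checkpoint, which holds anaphase until chromosomes are attached, both rose. Bub1b, which encodes the checkpoint protein BUBR1, was 2.72-fold higher (19.4 ± 7.07 against 7.12 ± 1.998 CPM; edgeR adjusted p = 0.000754). Bub1, a checkpoint kinase gene, was read at 11.3, 6.99, 14, 9.27 and 2.67 CPM in DDR2-plus 1 to 5 and 3.47, 2.18, 2.57, 2.24 and 0 CPM in PSC 1 to 5. PSC 5 had 0 counts, which allows up to 0.0747 CPM for counting error, and DDR2-plus 5 lay within the PSC range. The difference of 4.21-fold rested on widely spread values (edgeR adjusted p = 0.0418), and the call was lost in 10 of 19 other settings, namely by DESeq2 and limma-voom, without DDR2-plus 1, 2, 3 or 4, without PSC 2, 3 or 4 and without the 3 libraries with granulocyte genes (adjusted p up to 0.170).

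Among the centromere and passenger genes 3 of 4 rose. Cenpf, a large kinetochore protein gene, rose 2.32-fold (16.5 ± 6.68 against 7.09 ± 2.89 CPM; edgeR adjusted p = 0.0124), Cenpe, a kinetochore motor gene, rose 2.06-fold (10.7 ± 3.85 against 5.19 ± 1.23 CPM; edgeR adjusted p = 0.00864), and Birc5, the gene of survivin in the passenger complex, rose 1.598-fold (20.2 ± 6.12 against 12.6 ± 1.70 CPM; edgeR adjusted p = 0.0134). All 3 calls were lost without the 3 libraries with granulocyte genes, with adjusted p = 0.127 for Cenpf, 0.0518 for Cenpe and 0.0511 for Birc5. The groups overlapped for Cenpf, with DDR2-plus 5 at 8.88 CPM below PSC 1 and 3 at 10.4 and 9.15 CPM. They overlapped for Cenpe too, with DDR2-plus 5 at 6.09 CPM below PSC 5 at 6.65 CPM. Cenpa, the histone H3 variant that marks the centromere, had the smallest fold of all members. Its values were 27.8, 22.3, 17.7, 26.7 and 15.4 CPM in DDR2-plus 1 to 5 and 19.7, 26.05, 21.7, 13.6 and 15.6 CPM in PSC 1 to 5. The groups overlapped over most of their range, and no call was made here or in any of 19 other settings (log2 fold change 0.18, SE 0.204; edgeR adjusted p = 0.512).

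Spindle genes gave the widest range. Troap (chromosome 15, 99074575 to 99083409, plus strand) encodes trophinin-associated protein, or tastin, which is needed at spindle poles. It was measured at 6.10, 4.73, 4.35, 6.56 and 3.17 CPM in DDR2-plus 1 to 5 and 0.377, 1.19, 0.579, 1.33 and 0.249 CPM in PSC 1 to 5. The lowest DDR2-plus library stood well above the highest PSC library, and the difference was 6.67-fold (log2 fold change 2.74 with SE 0.486, 5 libraries a group; adjusted p by edgeR = 0.000689). Between 10 and 448 counts per library lie behind these values. Kif11, the motor gene that pushes spindle poles apart, was read at 26.1, 14.2, 10.5, 15.2 and 11.01 CPM in DDR2-plus 1 to 5 and 3.01, 6.82, 2.66, 4.12 and 2.64 CPM in PSC 1 to 5. DDR2-plus 1 stood above the other DDR2-plus libraries, and the groups did not overlap, with a rise of 3.99-fold (log2 fold change 1.998 with SE 0.328, 5 libraries a group; adjusted p by edgeR = 0.000389). Tpx2, a spindle assembly factor that activates Aurora A, rose 1.98-fold (23 ± 9.06 against 11.6 ± 2.09 CPM; edgeR adjusted p = 0.00557), with DDR2-plus 5 at 14.6 CPM just below PSC 2 at 14.7 CPM. Kif20a, a motor gene of the late spindle and cytokinesis, averaged 12.3 ± 3.27 against 9.56 ± 3.19 CPM without a call (edgeR adjusted p = 0.323), and it shares 29.3% of its exonic bases with Cdc23.

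Both genes of anaphase promotion, the ubiquitin step that ends mitosis, rose. Ube2c, the conjugating enzyme of the anaphase-promoting complex, was at 30.3, 15.5, 15, 22 and 9.54 CPM in DDR2-plus 1 to 5 and 6.12, 6.01, 5.56, 7.10 and 3.93 CPM in PSC 1 to 5. PSC stayed between 3.93 and 7.10 CPM, below all DDR2-plus libraries, for a rise of 3.21-fold (log2 fold change 1.68 with SE 0.28, 5 libraries a group; adjusted p by edgeR = 0.000425). The muscle gene Tnnc2 overlaps 22.8% of its exonic bases. Cdc20, the activator of the complex, rose 1.94-fold (25.4 ± 6.52 against 13.1 ± 6.03 CPM; edgeR adjusted p = 0.0155), with PSC 2 at 23.2 CPM above DDR2-plus 3 and 5.

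Levels were also set per kilobase of merged exons (GENCODE M21, mm10) to compare genes with each other. These per-length levels count exons of all isoforms, so genes with long rare exons are underestimated. In DDR2-plus and PSC, Pcna stood at 14.9 and 9.63 CPM per kb, Mcm6 at 13 and 8.66 CPM per kb, Cdc20 at 13.6 and 7.02 CPM per kb and Ccnb2 at 12.3 and 9.84 CPM per kb. Pole was the lowest S-phase gene in both populations, at 0.648 and 0.25 CPM per kb, followed by Esco2 at 0.768 and 0.305 CPM per kb and Cdc6 at 0.817 and 0.424 CPM per kb. Per length, Ccnb2 exceeded Ccnb1 (3.1 and 0.862 CPM per kb) in both populations. Troap was the lowest mitotic gene in PSC, at 1.42 and 0.212 CPM per kb.

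Summed over its genes, each arm gave 1 value per library. The 21 S-phase genes together reached 660, 430.8, 443, 522 and 414 CPM in DDR2-plus 1 to 5 and 255, 352, 315, 276 and 301 CPM in PSC 1 to 5. The 21 mitotic genes reached 595, 355, 361, 505 and 277 CPM in DDR2-plus and 195, 257, 219.5, 172 and 155 CPM in PSC. Neither sum overlapped between the groups, although DDR2-plus 5 and PSC 2 were close for the mitotic arm. Mean sums were 494 ± 102 and 299.9 ± 37.2 CPM for the S-phase arm and 419 ± 129 and 199.7 ± 40.0 CPM for the mitotic arm (SD, n = 5 each), ratios of 1.65 and 2.10. The mitotic sum was 83.5% ± 11.2 of the S-phase sum in DDR2-plus and 66.6% ± 9.97 in PSC. This share overlapped between the groups: DDR2-plus 5, at 66.9%, was below PSC 1, 2 and 3 at 76.7%, 72.9% and 69.6%. No p is given for these sums, because the members were chosen with results of these data known.

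**Figure D3:**
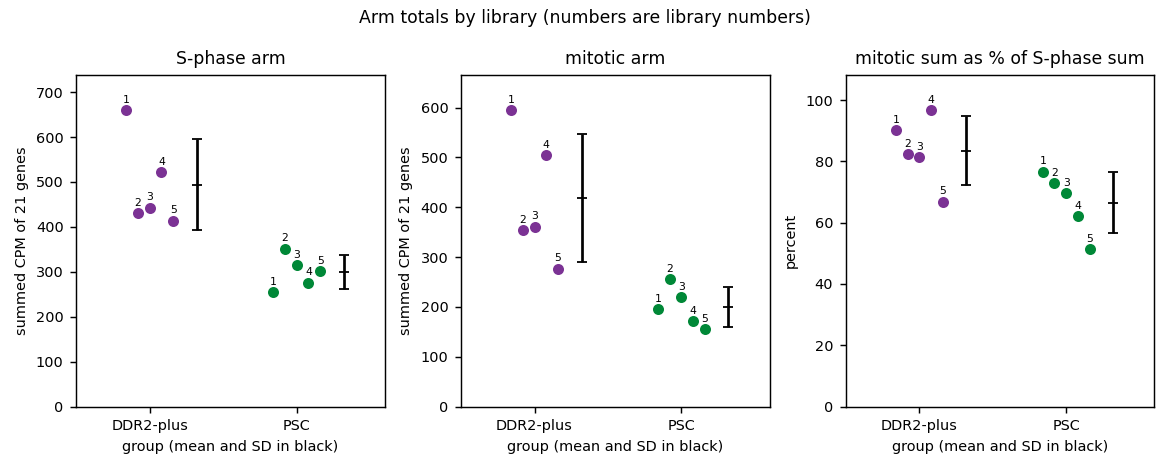
Summed CPM of the S-phase arm (left) and the mitotic arm (middle), and the mitotic sum as a percent of the S-phase sum (right), for each library by group, with the mean and SD in black. Both sums separate the groups, and the percent does not.

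Libraries of DDR2-plus differed among themselves in the same way for most genes. DDR2-plus 1 was the highest of its group for 33 of 42 genes, DDR2-plus 4 was the second for 29, and DDR2-plus 5 was the lowest for 27. In PSC the order was less uniform, with PSC 2 highest for 17 genes and PSC 5 lowest for 16, of which 11 were mitotic. The median coefficient of variation of the mitotic genes was 35.4% in DDR2-plus and 29.0% in PSC, and that of the S-phase genes 23.5% and 21.5%. Over all tested genes it was 17.0% in DDR2-plus and 21.7% in PSC. Groups did not overlap for 20 of 42 genes, all higher in DDR2-plus (9 S-phase and 11 mitotic), against 15.6% of all tested genes.

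**Figure D4:**
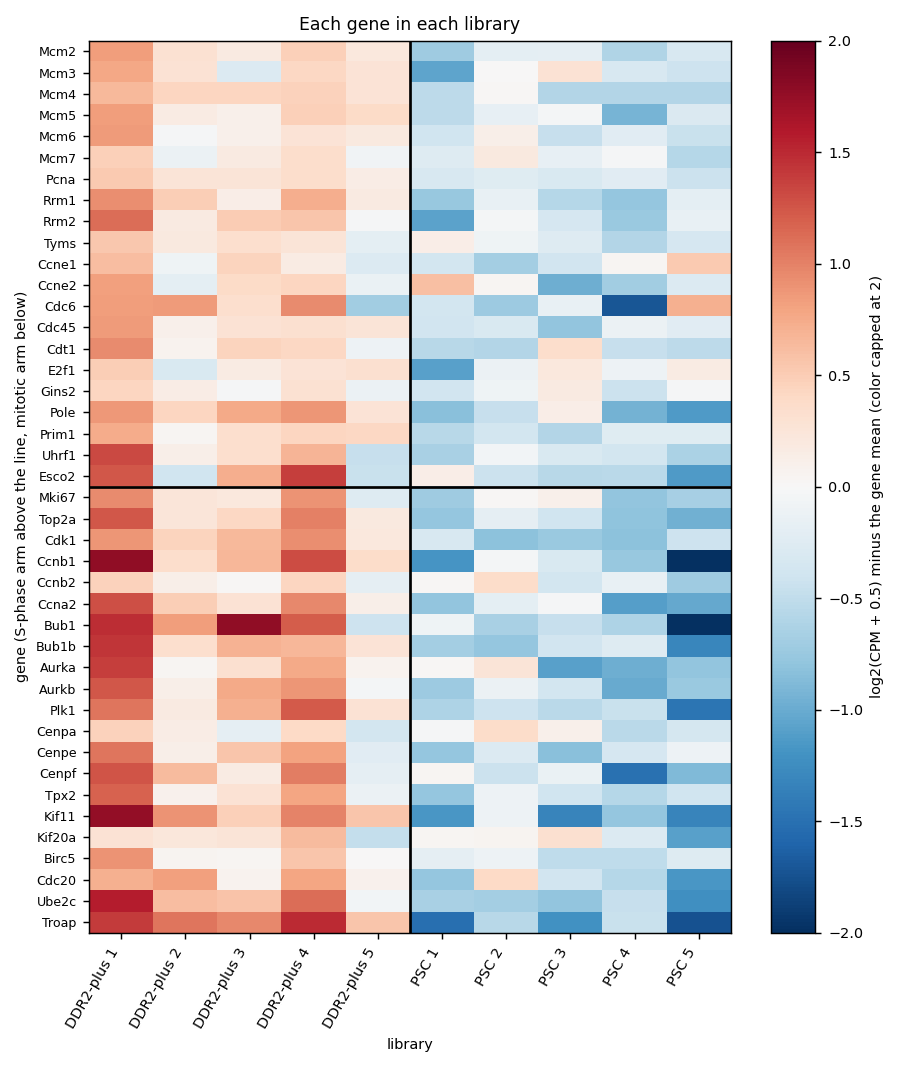
Each gene (rows) in each library (columns) as log2(CPM + 0.5) minus the mean of the gene, with red above and blue below it. DDR2-plus 1, the highest library of its group for 33 of 42 genes, is the reddest column, and the darkest blue cells include Ccnb1 and Bub1 in PSC 5.

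Other cell types that could carry these transcripts were followed with marker lists. Mpo and Elane, genes of granulocyte progenitors, were at 30.9 and 10.1 CPM in DDR2-plus 1 and at most 0.293 and 0.370 CPM in every other library. The 10 granulocyte markers summed to 53.3, 34.6, 2.77, 3.18 and 1.87 CPM in DDR2-plus and 3.11, 42.03, 4.93, 1.42 and 0.996 CPM in PSC. S100a8 and S100a9 led that sum in DDR2-plus 2 (14.9 and 11.7 CPM) and PSC 2 (17.6 and 14.6 CPM), where Mpo was at most 0.0699 CPM. In DDR2-plus 1 they were at 6.59 and 2.66 CPM, below Mpo and Elane. The high sums thus rested on different genes of the list. None of the 5 tested members of that list passed the test. Mpo and Elane did not pass the low-count filter and were not tested, so the list gives no call on them. Without the 3 libraries above 30 CPM (DDR2-plus 1 and 2, PSC 2), a setting chosen after seeing the data, 22 members rose and 0 fell (9 S-phase, 13 mitotic), with arm medians of 0.58 and 1.19. Over all genes, 2158 rose and 2145 fell in that setting, against 3096 and 2926 in the main fit. In the lists of other cell cycle genes described below, 45 rose in that setting, against 87 in the main fit. Without DDR2-plus 1 alone 25 members rose, and 2735 of all genes. The part of granulocyte cells in the difference was not tested.

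Immune markers summed to 17.3 to 36.1 CPM in DDR2-plus and 10.9 to 28.3 CPM in PSC (1 of 8 tested rose, Lyz2), and lymphoid ones to at most 2.25 CPM (0 of 1 tested). Of the erythroid list 3 of 7 tested genes rose, and its sums were 248 to 339 against 54.7 to 124 CPM, of which Tfrc, the transferrin receptor gene that many dividing cells use, made up 216 to 321 CPM in DDR2-plus and 48.2 to 117 CPM in PSC. Klf1, which encodes an erythroid transcription factor, was at most 1.71 CPM in DDR2-plus and at 0 counts in PSC. Endothelial markers summed to 26.1 to 57.3 against 22.0 to 43.6 CPM (3 of 8 tested rose, 2 fell). Skeletal muscle markers summed to 22.8 to 52.2 against 8.42 to 29.2 CPM (2 of 6 rose). The osteoclast list summed to 758 to 995 against 255 to 523 CPM (2 of 3 tested rose, 1 fell). Of these, Mmp9 (533 to 844 against 116 to 363 CPM) and Nfatc1 (136 to 254 against 100.1 to 148 CPM) rose and Acp5 fell, and the other 6 members were at most 2.04 CPM in any library.

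All 14 cartilage markers rose, and their sums were 104927 to 144374 CPM in DDR2-plus and 13957 to 32625 CPM in PSC. Of 11 osteoblast markers 9 fell (48264 to 87375 against 268055 to 298160 CPM), of 6 tendon markers 5 fell and 1 rose (3213 to 4158 against 4839 to 5698 CPM), and of 8 mural markers 5 fell and 2 rose, although their sum was higher (747 to 948 against 536 to 594 CPM). Of the neuron list 9 of 11 rose (56.1 to 183 against 8.39 to 16.2 CPM), of the pineal and photoreceptor list 7 of 8 (159.8 to 254 against 4.37 to 7.83 CPM), and of the glial list 9 of 10 (812 to 1390 against 433 to 478 CPM). Of the olfactory list 6 of 6 rose (10.1 to 403 against 0.125 to 2.06 CPM, the highest in DDR2-plus 5), and of the early response list 18 of 23 (26476 to 33025 against 11563 to 17333 CPM). The part of these cell types in the difference of the replication and mitosis genes was not tested. Within DDR2-plus the mitotic sum was highest in libraries 1 and 4, as was the erythroid sum, most of which was Tfrc. Alas2, another gene of the erythroid list, was at 8.77, 12.4, 14.1, 4.19 and 4.99 CPM in DDR2-plus 1 to 5. The part of erythroid cells in the order of the libraries was not tested. The granulocyte, neuron and glial sums were highest in library 1, and the cartilage sum in library 4. Ddr2 itself averaged 112 ± 3.56 CPM in the population named for it against 152 ± 10.7 CPM in PSC, and Ctsk 107 ± 15.2 against 294 ± 14.97 CPM (SD, n = 5 each). Library totals ranged from 43419129 to 62021992 counts.

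The wider machinery was followed in 12 lists of other cell cycle genes. Over these 208 tested genes 87 rose and 7 fell, where 20.1% and 19.0% of all tested genes did, with a median log2 fold change of 0.49. Without the 3 libraries with granulocyte genes 45 rose and 4 fell, and with library size alone as scaling, which moves the median of all genes from 0.04 to 0.31, 146 rose and 1 fell. List medians were highest for cytokinesis (1.11), spindle motors and poles (1.01), replication-linked repair (0.84) and the kinetochore (0.73). They were lowest for G1 cyclins and CDK inhibitors (0.15) and for the mixed list named for the anaphase-promoting complex (0.08).

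**Figure D5:**
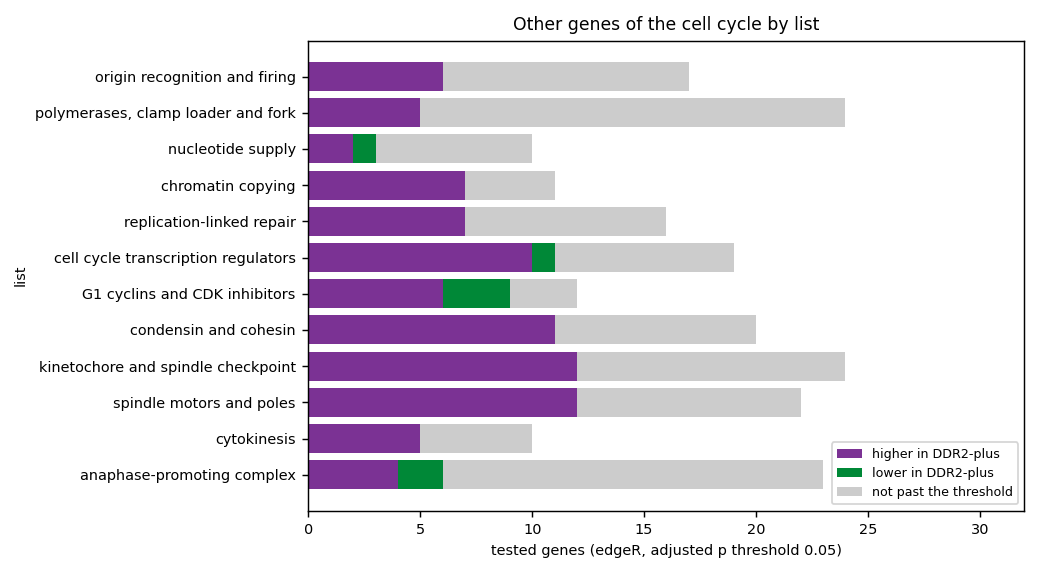
Number of tested genes (x axis) in each of 12 lists (y axis) that were higher, lower or not past the threshold in DDR2-plus. The largest count of higher genes, 12, was found for the kinetochore and for the spindle list.

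On the side of replication, 6 of 17 genes of origin recognition and firing rose. Ticrr, which encodes treslin for origin firing, measured 9.41, 1.78, 3.29, 3.76 and 2.60 CPM in the DDR2-plus libraries and at most 0.278 CPM in PSC, from 2 to 12 counts, and Wdhd1, a fork protein gene, was 2.53-fold higher. Orc3, of the origin recognition complex, averaged 39.1 and 32.02 CPM without a call. Of 24 polymerase, clamp loader and fork genes 5 rose, among them Rpa1, the single-strand binding protein gene, 1.40-fold, and Tipin, of the fork protection complex, 1.29-fold, while the clamp loader gene Rfc1 averaged 50.6 and 41.9 CPM without a call. That share is near the 20.1% of all tested genes, and Rpa1 lost its call without the 3 libraries with granulocyte genes (adjusted p = 0.0674). In nucleotide supply 2 of 10 rose, again near the share of all tested genes, and 1 fell: Mthfd1, a folate enzyme gene, rose 1.71-fold, the nucleoside diphosphate kinase gene Nme1 fell 1.28-fold, and the thymidylate kinase gene Dtymk was at 53.9 and 54.7 CPM. Of 11 chromatin copying genes 7 rose, with Slbp, which binds histone mRNA, 1.90-fold and the histone chaperone gene Nasp 1.59-fold higher, and Kmt5a at 37.6 and 28.5 CPM without a call. Of 16 genes of replication-linked repair 7 rose, among them the mismatch repair gene Msh6 (1.82-fold), while the checkpoint kinase gene Atr was at 10.9 and 10.2 CPM.

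Condensin and cohesin genes rose in 11 of 20 cases, with the condensin II subunit gene Ncapg2 3.02-fold and the condensin I subunit gene Ncapd2 1.95-fold higher, and Ncaph2 at 61.6 and 68.6 CPM without a call. Of 24 kinetochore and checkpoint genes 12 rose, among them Spc25, of the NDC80 complex, 3.26-fold, and Incenp, the scaffold of the passenger complex, 1.87-fold, whereas Pmf1 was at 16.6 and 16.1 CPM. In the spindle list 12 of 22 rose, with Tacc3 2.01-fold and Hmmr 2.17-fold higher, and the centriole kinase gene Plk4 at 11.2 and 9.33 CPM. Of 10 cytokinesis genes 5 rose, including Prc1, which bundles the midzone, 3.16-fold, and Cntrob, 1.78-fold. The cytokinesis scaffold gene Anln averaged 12.8 and 5.96 CPM and did not pass, although its groups did not overlap. The list named for the anaphase-promoting complex also holds genes that are not its subunits, such as Cdc25a, Wee1 and Mastl. In this mixed list 4 of 23 were higher and 2 lower, both below the shares of all tested genes (20.1% and 19.0%). Among its subunit genes, Anapc7 rose 1.36-fold, Anapc13 fell 1.24-fold and Anapc2 fell 1.124-fold, and Anapc5 was at 264 and 281 CPM. Anapc2 lost its call in 13 of 19 other settings and turned to 0.10 on the log2 scale with library size alone. Anapc7 (adjusted p = 0.0777) and Anapc13 (0.0610) lost their calls without the 3 libraries with granulocyte genes.

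Of 19 transcription regulators 10 rose and 1 fell. Rbl2, which encodes the pocket protein p130, was 1.64-fold higher and Tfdp1, the E2F partner gene, 1.31-fold higher, whereas E2f4, the gene of a repressive E2F, was 1.31-fold lower and Rb1 was at 13.3 and 10.6 CPM without a call. Of 12 tested G1 cyclins and CDK inhibitors 6 rose and 3 fell. The inhibitor genes Cdkn2d and Cdkn1a, whose products restrain the cycle, were 2.03-fold and 1.92-fold higher (617 against 322 CPM for Cdkn1a). The cyclin genes Ccnd2 and Ccnd3 were 1.47-fold and 1.24-fold lower and the inhibitor gene Cdkn2b 2.31-fold lower, while Cdkn1c was at 933 and 995 CPM without a call. With library size alone, E2f4, Ccnd2, Ccnd3, Nme1 and Anapc13 lost their calls, and Dtymk, Cdkn1c and Anapc5 passed as higher. Ccnd3 also lost its call without the 3 libraries with granulocyte genes.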

How the data were processed

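The authors deposited unnormalized counts, 1 whole number for each gene symbol and library. The submitters' processing notes name the build mm10 and the tool DESeq; aligner, counter and annotation: not given in the sources used here. Per the labels' protocols, cDNA was amplified from 1 ng of RNA and fragmented by a transposase, a preparation that does not keep strand. Totals ranged from 43419129 to 62021992 counts, so 1 count was worth 0.0146 to 0.0249 CPM. Amplified reads are not independent molecules, so limits for low counts cover counting error only.

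Genes were tested by quasi-likelihood in edgeR 4.0.16 (R 4.3.3) with TMM factors, filterByExpr, no covariates and Benjamini-Hochberg adjustment over 15416 genes (threshold 0.05). The SE of a log2 fold change is its size divided by the square root of F. Arms and lists are described by counts and medians. The fit was tested on simulated data. DESeq2 1.42.0, limma 3.58.1 (voom), other scalings and filters, the library number as a block and leaving out libraries were tried. Members, lists and motifs were chosen with earlier results of these data known. Named from each list of other genes are the 2 called genes with the smallest p, and the most abundant gene without a call; E2f4, Ccnd2, Ccnd3, Cdkn2b and Anapc2 were added after their values were seen, to name all genes that fell. Some values that this rule would name are not reported here.

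Over 10% of exonic bases overlap another annotated gene in Mcm7, Ccne2, Gins2, Ccna2, Kif20a and Ube2c, and among other named genes in Nme1, Rb1, Rbl2, Cdkn1c, Ncaph2, Prc1 and Anapc13.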

Additional observations from a re-analysis of the deposited data

Results flagged for a closer look

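Single libraries stood far from the other 4 of their group for 6 of 88 sets of 5 values (42 genes and both arm sums in both groups), where chance alone gives about 1 in 20. In DDR2-plus 1, Mcm6 reached 88.3 CPM (others 47.9 to 59.1), Cdc45 10.2 CPM (others 5.89 to 6.88) and Bub1b 31.4 CPM (others 13.9 to 18.8). In PSC, Mcm4 reached 33.3 CPM in library 2 (others 21.5 to 22.6), Cdt1 13.3 CPM in library 3 (others 6.73 to 7.42), and Plk1 was at 1.84 CPM in library 5 (others 3.69 to 4.35). None of the 6 reverses the direction of its gene. DDR2-plus 1 is also the library with Mpo and Elane, and the part of those cells was not tested.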

How the results depend on the processing

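Of the 31 members that rose, 21 (9 S-phase, 12 mitotic) passed in all 19 other settings, and 0 of 42 changed direction. The other 10 lost the call somewhere; 7 members without a call gained one in at least 1 setting, and Ccne1, Ccne2, Cenpa and Kif20a passed in none. The number that rose was 31 with RLE or upper quartile factors and with either other filter, 32 by DESeq2, 28 by limma-voom, 37 with library size alone, 22 without the 3 libraries with granulocyte genes, and 25 to 32 when 1 library was left out, lowest without DDR2-plus 1. The causes were not tested. With the library number as a replicate block 31 rose, the same count as without it; the libraries of both groups share numbers in the labels, which do not say what a number marks. Deviations of same-numbered libraries correlated at 0.00653 to 0.0898 across genes, so the numbers were not used to pair them, which does not show that no animals are shared; 3 of 5 DDR2-plus libraries correlated best with the PSC library of their own number. With library size alone the S-phase median moved to 1.06 and the mitotic median to 1.56, all genes to 5421 higher and 1538 lower, and the pathway lists to 146 higher and 1 lower; without the libraries with granulocyte genes those lists had 45 higher and 4 lower. That last setting has fewer libraries (3 against 4). Directions reversed with library size alone for Dtymk (0.25 on the log2 scale), Cdkn1c (0.18), Anapc5 (0.18) and Anapc2 (0.10). With Esco2 in the mitotic arm, 12 S-phase and 19 mitotic genes rose, with medians of 0.77 and 1.29. Depth limits Troap, Cdc6, Bub1, Ccnb1 and Esco2 most, each with under 50 counts in at least 1 library.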

Other observations

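PSC 5 held the lowest mitotic sum (155 CPM) with an S-phase sum of 301 CPM in the middle of its group, so its mitotic sum was 51.5% of its S-phase sum, the lowest of the 10 libraries. Its Bub1 count was 0, its Ccnb1 level 1.02 CPM and its Troap level 0.249 CPM, while its Ccne1 level of 13.5 CPM and Cdc6 level of 4.76 CPM were the highest of PSC. DDR2-plus 4 stood at the other end, at 96.8%. The difference between these libraries has no test, since each is a single library.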
